A study of Rattus norvegicus with 6 samples.

Results

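Heterotrimeric G proteins, RGS proteins, adenylyl cyclases, phosphodiesterases and protein kinase A (PKA) with its anchors were examined in whole adrenal gland of the spontaneously hypertensive rat (SHR) and the Wistar-Kyoto rat (WKY), its usual normotensive comparison. Members were all probe sets of the Affymetrix RG-U34A array whose annotated symbol began with Adcy, Pde, Prkac, Prkar, Akap, Gna, Gnb, Gng or Rgs in the form used for these families. This gave 92 of 8740 probe sets, of which 90 name 1 of 60 genes each and 2 name more than 1 gene, in all 62 of the 5147 annotated symbols. The 6 arrays were 3 SHR and 3 WKY adrenal samples, and the labels used here name no treatment, age or sex. Whether the 3 samples of a strain were separate animals is not said either, so the tests measure spread among samples that may be technical repeats.

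In this signalling chain a hormone receptor makes a G protein alpha subunit exchange GDP for GTP and part from its beta-gamma pair. The Gs alpha subunit activates adenylyl cyclase, the Gi alpha subunits inhibit it, and RGS proteins end the signal by speeding GTP hydrolysis. Cyclic AMP releases the catalytic subunits of PKA from its regulatory subunits, anchors of the AKAP family hold the kinase at given sites, and phosphodiesterases break cyclic AMP down. In the adrenal cortex corticotropin drives glucocorticoid synthesis through this chain, and inherited loss of Prkar1a or somatic activation of Prkaca is known to cause cortisol excess in people. Chromaffin cells of the medulla use it to raise catecholamine synthesis.

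Promoter sequences of 47 of the 62 symbols were found in the RefSeq-derived table (build GRCr8), in 61 windows of 300 bases from 250 before to 50 after a transcription start. Adcy3, Adcy6, Adcy8, Gnai2, Gnai3, Gnaz, Gnb3, Gng8, Pde1b, Pde3b, Pde4c, Pde6d, Pde7a, Prkar2a and Rgs22 were not matched. The motifs were searched on both strands. The full cyclic AMP response element TGACGTCA, the site bound by CREB, lay in 1 of the 61 windows (1.64%), that of Gnao1, against 1.83% of all 33469 windows, those of uncharacterised loci included. Its core TGACG, which the full element contains on each strand, lay in 14 windows (23.0%) against 21.2% of all, and the GC box GGGCGG in 33 (54.1%) against 33.1%. These matches describe the letters of the windows and do not show a bound site. The 250 bases before the start are shown for Gnb5 and Prkar2b, the lower and the higher gene with a log2 difference among the widest below, and for Gnao1 as the holder of the full element. Capitals mark the motif letters, on either strand.
Gnb5 (chr8:84956379-84956628, plus strand): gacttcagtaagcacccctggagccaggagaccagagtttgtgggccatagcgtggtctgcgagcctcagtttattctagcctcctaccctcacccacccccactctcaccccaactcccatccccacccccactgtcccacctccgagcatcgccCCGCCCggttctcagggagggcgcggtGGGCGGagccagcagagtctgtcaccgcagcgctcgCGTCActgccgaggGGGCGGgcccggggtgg
Prkar2b (chr6:54381412-54381661, minus strand): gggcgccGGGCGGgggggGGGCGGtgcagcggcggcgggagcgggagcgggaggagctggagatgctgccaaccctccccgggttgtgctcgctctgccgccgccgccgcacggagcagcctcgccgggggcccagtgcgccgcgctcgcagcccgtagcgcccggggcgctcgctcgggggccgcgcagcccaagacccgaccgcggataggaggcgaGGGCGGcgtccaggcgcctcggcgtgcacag
Gnao1 (chr19:11198438-11198687, minus strand): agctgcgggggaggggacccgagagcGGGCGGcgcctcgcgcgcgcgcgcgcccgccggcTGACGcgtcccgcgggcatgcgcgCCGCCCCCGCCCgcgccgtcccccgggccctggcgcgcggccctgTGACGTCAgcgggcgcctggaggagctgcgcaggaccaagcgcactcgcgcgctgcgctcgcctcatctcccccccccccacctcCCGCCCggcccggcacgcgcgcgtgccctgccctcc
In these stretches the TGACG core of Gnb5 is on the minus strand. It shows in the printed letters as CGTCA, which begins 31 bases before the start. The full element of Gnao1 begins 121 bases before the start of that gene. The Prkar2b stretch holds 3 GC boxes and no TGACG.

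All values below are the deposited linear intensities, 1 per probe set and array, or differences on the log2(intensity + 181.5) scale, where 181.5 is the 20th percentile of all values. Changes of dim probe sets come out too small on this scale. Probe sets with a mean log2 value above the 40th percentile were tested with limma, and p-values were adjusted over all 5244 of them. Of the 92 members 52 were tested, and 35 genes had a tested probe set naming no other gene. The arrays had nearly equal trimmed means, of intensity from 2499.63 to 2499.93. The 3' to 5' ratio of the hexokinase control was 4.21 in SHR replicate 2 against 1.96 to 2.54 in the others. That of the GAPDH control was 0.947 in SHR replicate 2, within the 0.901 to 1.14 of the others. Markers of both adrenal layers were measured, with 8 of 11 listed chromaffin genes and 7 of 12 listed cortex genes tested. A split into 2 hybridization runs was inferred from the clock times in the settings files and is not a stated part of the design. SHR replicate 1 and the 3 WKY arrays were assigned to the first run, and SHR replicates 2 and 3 to the other. All results with the run as a block rest on this inferred split. Intensities of different probe sets are not compared here, because each binds its target with its own strength. The marker sums below add such intensities, so the brightest probe sets weigh most in them. These sums are compared only between strains.

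The comparison of strains asked which members differed between SHR and WKY. None of the 52 tested members passed limma's test at an adjusted p under 0.05, against 1.95% of all 5244 tested probe sets (102, with 1.07% higher and 0.877% lower). At an unadjusted p under 0.05 there were 6 members (11.5%), 2 higher and 4 lower in SHR, against 13.9% of all tested probe sets (6.77% higher and 7.11% lower). The strains did not overlap in 13 members (25.0%), 6 higher and 7 lower, against 20.7% of all (10.2% higher and 10.5% lower). The median log2 difference was -0.075 over the members and -0.0069 over all tested probe sets, and 22 members (42.3%) had a positive and 30 a negative sign, where 49.1% of all were positive. A difference of at least 2-fold was seen in 1 member, a Gnb5 probe set, which is 1.92% against 4.1% of all. The 95% interval of the difference lay inside 2-fold either way for 38 of the 52 members (73.1%, against 72.8% of all) and inside 1.41-fold for 8 (15.4%, against 17.0%). In simulated arrays with the spread of this comparison and 5244 probe sets, limma called 7.46% of those set to differ by 0.5 (log2), 43.7% at 1 and 83.2% at 2.

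**Figure D1:**
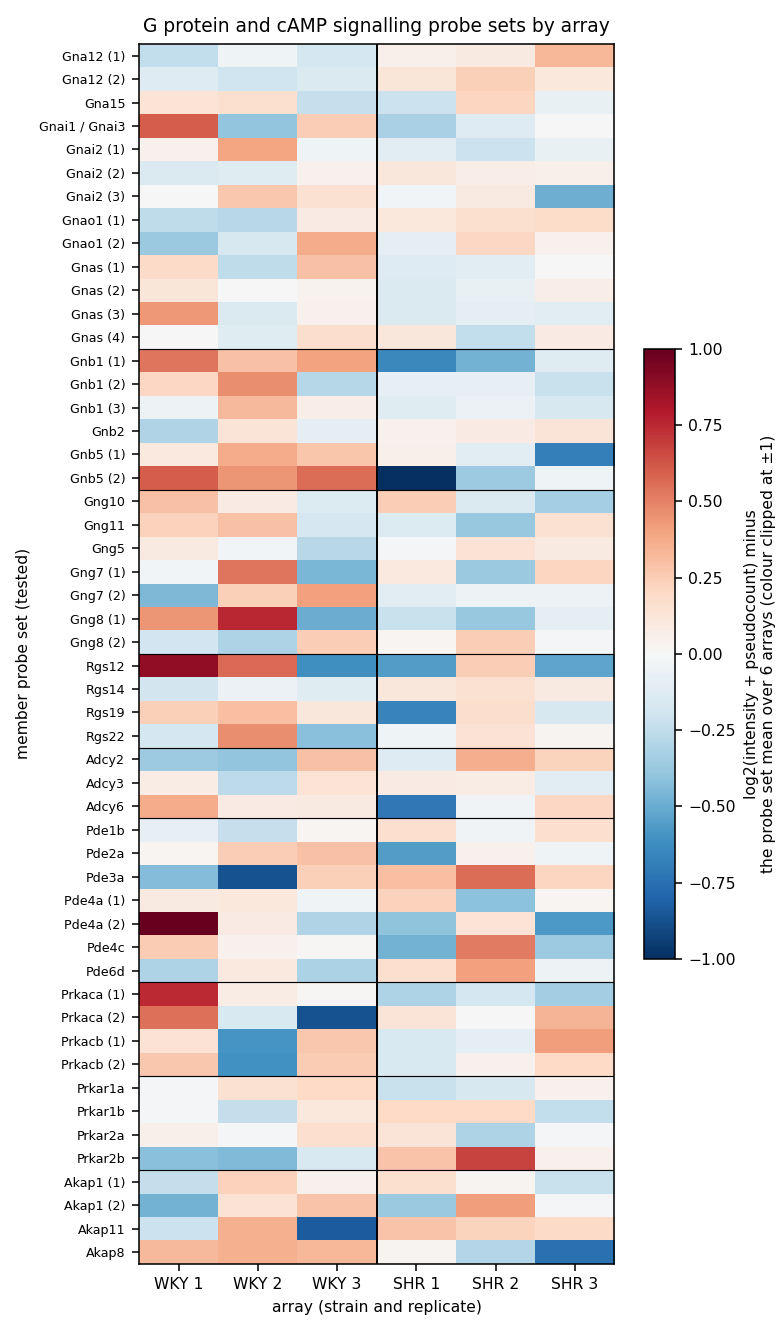
Each row is 1 of the 52 tested member probe sets and each column 1 array; colour gives log2(intensity + 181.5) minus that probe set's mean over the 6 arrays, numbers in brackets tell apart probe sets of a gene, and lines set the families apart. Colour is clipped at 1 either way. The second Gnb5 row, the first Gnb1 row and the Akap8 row are lower in SHR and the Prkar2b row is higher, while most rows are mixed within a strain.

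Markers of cell types that a gland can hold also differed between the strains. Of 9 listed fibroblast and capsule genes tested, 4 fell in SHR, with summed intensities from 55182 to 66259.8 in SHR and 85223 to 102710.0 in WKY. The 8 tested chromaffin genes summed to 40489.6 to 51887 in SHR and 53401 to 61479 in WKY (1 fell), and the 5 tested nerve and Schwann cell genes to 4804 to 5016 against 6342 to 7054 (0 passed). The 7 tested cortex genes, at 242058 to 346683 in SHR and 271447 to 386406 in WKY, overlapped between strains. In the remaining 8 lists 1 fat cell and 1 leukocyte marker fell and 1 smooth muscle marker rose. Their sums overlapped in endothelium, smooth muscle, fat, leukocytes and kidney. They did not in skeletal muscle (7006 to 7421 in SHR, 4251 to 6155.5 in WKY), liver (3078 to 4361.5 against 4875 to 5025) and red blood cells (34587 to 39859 against 43088 to 99452). Genes within the fibroblast, chromaffin and nerve lists differed in sign. So did those of the skeletal muscle and liver lists, where none was called. In skeletal muscle Myh1 was at 1.16 and Myl1 at -0.59, with a list median of -0.11, and in liver Serpina1 was at -1.36 and Ttr at 0.38. No tested marker was listed at 0 on any array. The part of these cell markers in the differences of the members was not tested, and in bulk tissue fewer cells of a type and less RNA per cell cannot be told apart.

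Among the alpha subunits 0 of 13 tested probe sets passed, with log2 differences from -0.30 to 0.31. Gnas, which encodes the stimulatory subunit from an imprinted locus with several starts, was read by 4 probe sets. Of these rc_AI237836_g_at read 77837, 60619 and 76420.3 in SHR and 71909.6, 66302 and 81565 in WKY. X84047cds_at read 26201, 27544.5 and 30496.5 in SHR and 31516.5, 29123.5 and 29705 in WKY. The strains overlapped in both, and the 4 log2 differences were -0.036, -0.10, -0.15 and -0.22, with limma adjusted p from 0.568 to 0.937. The interval for X84047cds_at, -0.35 to 0.14, lay inside 1.41-fold either way.

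The inhibitory subunit gene Gnai2 had 3 tested probe sets that differed in sign, with 0 called. M12672_at read 4816, 4439.5 and 4929.7 in SHR and 5355.5, 6864 and 5044 in WKY, every SHR array below every WKY array. The other sequence, rc_AA875225_at, read 14619, 14169.8 and 13982 in SHR and 12196, 12396 and 13932 in WKY, every SHR array above. Their log2 differences were -0.26 ± 0.16 (SE; limma adjusted p = 0.506) and 0.15 ± 0.11 (SE; limma adjusted p = 0.609), and rc_AA875225_g_at stood at -0.28. The order of the strains differed between these probe sets. A probe set shared by Gnai1 and Gnai3 read 6288.5, 7243 and 7953 in SHR and 12140.5, 5986.5 and 9475 in WKY, with overlap, and its difference was -0.30 ± 0.25 (SE; limma adjusted p = 0.635).

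Gna12, an alpha subunit gene of the class named after it, gave the same small difference in both of its probe sets. D85760_at read 4873, 5005 and 5964 in SHR and 3927, 4548 and 4137 in WKY. S50461_s_at read 2259.9, 2456.5 and 2231 in SHR and 1866.5, 1769 and 1847 in WKY. In each, every SHR array was above every WKY array, and the log2 differences were 0.31 ± 0.15 (SE; limma adjusted p = 0.395) and 0.31 ± 0.15 (SE; limma adjusted p = 0.406). The intervals ran from -0.025 to 0.65 and from -0.034 to 0.66. Gnao1, the Go subunit of neurons and neuroendocrine cells, had no overlap in M17526_at (881, 919 and 936 in SHR and 645, 632 and 859 in WKY) but overlapped in M17526_g_at, at 0.30 and 0.10 (limma adjusted p = 0.583 and 0.887). Gna15, a member of the Gq class known from blood cells, was at -0.047 (0.945). No annotated symbol matched Gnaq, and Gnal, Gnat3, Gnaz and the probe set of Gnai1 alone were below the filter.

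Beta subunits held the 2 widest differences of all tested members, in Gnb5 and Gnb1, with 5 of 6 tested probe sets lower in SHR by sign, 4 of 6 without overlap, and 0 called. The 4 come from Gnb1 and Gnb5 alone, where probe sets of a gene share its transcripts, and over all tested probe sets 20.7% did not overlap, 10.5% with SHR below, and 49.1% had a positive sign. Gnb5 encodes the divergent beta subunit that pairs with RGS proteins of the Rgs9 class in place of a gamma subunit. Its probe set AF001953_g_at read 653, 1305 and 1675 in SHR and 2738, 2417 and 2646.5 in WKY. All SHR arrays were below all WKY arrays, with SHR replicate 1 the lowest and the SHR arrays further apart than the WKY ones. The means were 1211 ± 517.5 in SHR and 2600.5 ± 166 in WKY (intensity, mean ± SD, n = 3 each), and the log2 difference was -1.07 ± 0.29 (SE; limma adjusted p = 0.132), with a 95% interval of -1.74 to -0.41. Without SHR replicate 1 it was -0.74 (0.194), and with a block for the hybridization run -1.74 (adjusted p = 0.0572), a value that rests on SHR replicate 1 alone against the WKY arrays. The second probe set from the same sequence, AF001953_at, read 1862, 1649 and 1045 in SHR and 1932, 2366 and 2216 in WKY, again without overlap, at -0.50 ± 0.23 (SE; limma adjusted p = 0.386). There the lowest SHR array was replicate 3, the difference without it was -0.28 (0.594), and the run as a block gave -0.20 (0.899). When the log2 values of both probe sets were averaged, Gnb5 differed by -0.79 with a limma adjusted p of 0.0497. It was the 1 gene among the members and the 7 pathway lists given below to pass in that form. That fit held 1 value for each of 3144 genes, and its p-values were adjusted over these genes, not over the 5244 probe sets. The share of all genes called in it was not counted.

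Gnb1, a widely used beta subunit gene, was lower in SHR by sign in 3 of 3 probe sets, to unequal degree. AF022083_s_at, with an s in its name that marks probes that may bind several transcripts, read 599, 697 and 937 in SHR. In WKY it read 1587, 1311 and 1427, a clear gap between strains. Its log2 difference was -0.82 ± 0.22 (SE; limma adjusted p = 0.122) with an interval of -1.32 to -0.33, and the unadjusted p of 0.00513 was the smallest of the 52 tested members. U88324_g_at read 5218.5, 5462 and 5088 in SHR and 5482, 7183 and 5978 in WKY, also without overlap but much closer, at -0.23. U88324_at, at -0.25, overlapped (limma adjusted p = 0.544 and 0.632, in that order). Gnb2, another widely used subunit, read 16432, 16853 and 17442 in SHR and 12903, 17409 and 14965 in WKY, with overlap, and stood at 0.17 ± 0.14 (SE; limma adjusted p = 0.624). Gnb3 and Gnb4 were below the filter.

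**Figure D2:**
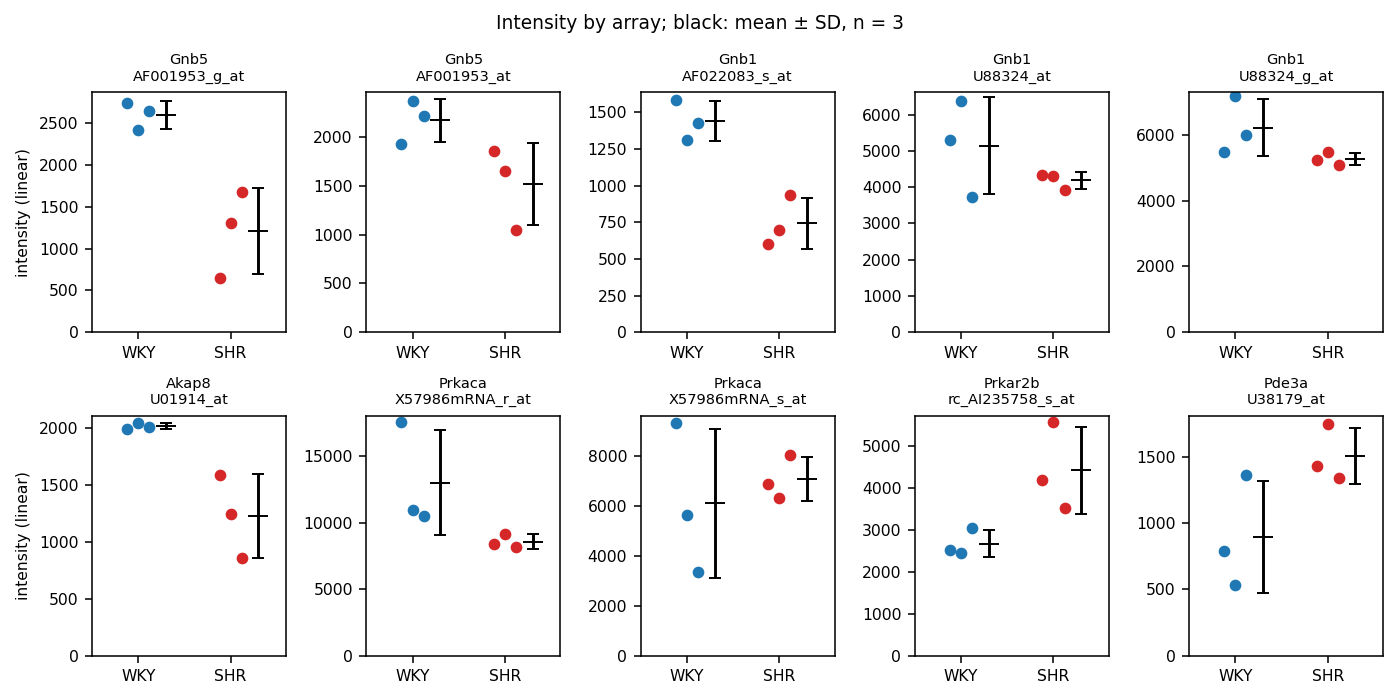
Linear intensity on each array (blue WKY, red SHR, axes from 0, scale set per panel) for the 6 members at an unadjusted p under 0.05 and the further probe sets of the same genes, with mean ± SD (n = 3) in black. Both Gnb5 panels, Akap8, Gnb1 AF022083_s_at and Prkaca X57986mRNA_r_at show SHR wholly below WKY, as does Gnb1 U88324_g_at by a narrow gap. Prkar2b shows SHR wholly above, and the Prkaca panels differ in direction.

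Gamma subunits, which tether the beta-gamma pair to the membrane, gave 0 of 7 calls and 0 of 7 without overlap between strains. Over all tested probe sets 20.7% did not overlap, so a count of 0 in so few is not read as a trait of the family. Gng8 disagreed between its probe sets, at -0.47 in L35921_at and 0.17 in L35921_g_at, with WKY arrays of the former at 1691, 2148 and 799.9. Gng11 was at -0.24, Gng10 at -0.16, Gng5 at 0.14 and the Gng7 probe sets at -0.039 and -0.14. The probe set M95780_at, also of Gng5, was below the filter. Adjusted p in limma ran from 0.572 to 0.970 across the family.

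RGS genes were measured thinly, with 4 of 10 probe sets tested and 0 called. Rgs14, which carries a second Gi-binding motif beside its RGS domain, read 2392, 2465 and 2351 in SHR and 1915, 2105 and 2002 in WKY. These strains did not overlap, but the gap was small, at 0.24 ± 0.15 (SE; limma adjusted p = 0.516). Rgs19, first found as a partner of Gi3, read 450.0, 951.5 and 714 in SHR and 997, 1051 and 903 in WKY, with SHR replicate 2 inside the WKY range, and stood at -0.43 ± 0.26 (SE; limma adjusted p = 0.515). Rgs12 spread widely within WKY (398.5 to 1456) and was at -0.56 ± 0.43 (SE; limma adjusted p = 0.614), and Rgs22 was at 0.083 (0.923). Rgs4, which acts on Gi and Gq, lay below the filter at 169, 208 and 554 in SHR and 695, 629 and 284.5 in WKY, with overlap. Rgs1, Rgs8, Rgs9 and Rgs18 were below it too, and no annotated symbol matched Rgs2.

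Of 9 adenylyl cyclase probe sets 3 were tested and 0 passed, each overlapping between strains, where 20.7% of all tested probe sets did not. Adcy6, an isoform inhibited by calcium, read 498, 909.9 and 1105 in SHR and 1261, 999 and 1004 in WKY, with SHR replicate 1 lowest, and was at -0.36 ± 0.28 (SE; limma adjusted p = 0.618). Adcy2, which beta-gamma subunits stimulate together with Gs, read 1453, 2123.5 and 1910.5 in SHR and 1213, 1184 and 2013 in WKY and stood at 0.31 ± 0.25 (SE; limma adjusted p = 0.633). Adcy3, at 2643, 2617 and 2288.5 in SHR and 2625, 2033 and 2745 in WKY, was at 0.034 ± 0.17 (SE; limma adjusted p = 0.957), a difference with an interval of -0.36 to 0.43. The probe sets of Adcy4, Adcy5, Adcy8 and Adcy10 were below the filter.

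Phosphodiesterases gave 0 calls among 7 tested probe sets, 0 of them without overlap, against 20.7% of all tested probe sets. Pde3a, the isoform that cyclic GMP inhibits, read 1431, 1747 and 1339 in SHR and 787, 533 and 1365 in WKY. WKY replicate 3 lay inside the SHR range and the other two WKY arrays below it. Its log2 difference was 0.71 ± 0.30 (SE; limma adjusted p = 0.331), with an interval of 0.03 to 1.40, and it moved with the WKY arrays, from 0.46 without WKY replicate 2 to 1.01 without WKY replicate 3. Pde2a, the isoform that cyclic GMP stimulates and that is known from aldosterone-producing cells, read 2444, 3797 and 3567 in SHR and 3723, 4388.5 and 4543 in WKY and stood at -0.37 ± 0.20 (SE; limma adjusted p = 0.447). Among the cyclic AMP-specific PDE4 genes, Pde4a was at -0.56 and -0.10, the former with WKY replicate 1 at 2980.5 and its other WKY arrays at 1436 and 1061, and Pde4c was at -0.21. Pde1b, activated by calmodulin, was at 0.20. Pde6d, whose product carries lipid-modified proteins and has no catalytic activity, was at 0.35 ± 0.21 (SE; limma adjusted p = 0.512).

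All 4 probe sets of Pde4b and both of Pde4d were below the filter, as were both of Pde5a, which breaks down cyclic GMP. Pde4b is known for its induction by cyclic AMP, and its probe set rc_AA799729_g_at read 649.8, 563 and 442 in SHR and 374, 700.0 and 305 in WKY. Pde4d L27060_at read 148, 261 and 131 in SHR and 322, 153 and 150.3 in WKY, and both overlapped between strains. Pde1c, Pde3b, Pde7a, the Pde4c probe set L27061_at and a probe set shared by Pde11a and Cyct were also below the filter. Of the Pde5a probe sets, D89093_at read 226, 179 and 173 in SHR and 403, 653 and 591 in WKY, without overlap. It was chosen for mention after its values were seen. Fitted with no filter it stood at -0.95 ± 0.24 (SE; limma adjusted p = 0.165), while the other Pde5a probe set had 1 high array, WKY replicate 3 at 1663, and the remaining arrays between 129 and 217. Of the 40 members below the filter, 3 had no overlap between strains (7.5%, against 11.8% of all 3496 probe sets below it, 5.32% higher and 6.44% lower), 2 lower (that of Pde5a and one of Pde4c) and 1 higher (one of Rgs8), and 10 were below 181.5 on every array.

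The PKA subunits were all tested, 4 catalytic and 4 regulatory probe sets, with 0 called. Prkar2b, the RII beta subunit found mainly in neuroendocrine cells and fat, read 4185, 5559.6 and 3512 in SHR and 2509, 2455 and 3050.1 in WKY. Its only probe set, rc_AI235758_s_at, also carries the s of probes that may bind several transcripts. Every SHR array was above every WKY array, with means of 4419 ± 1044 in SHR and 2671 ± 329 in WKY (intensity, mean ± SD, n = 3 each). Its log2 difference was 0.67 ± 0.20 (SE; limma adjusted p = 0.162), with an interval of 0.21 to 1.13, and 0.62 with the run as a block (0.621). The 5 tested fat cell markers summed to 29425 to 43247 in SHR and 30693 to 62202 in WKY, which overlapped. Of these Cfd fell, at -1.999 (limma adjusted p = 0.0324), while Fabp4 was at -1.52 (0.235) and Ucp1 at -0.33. Lep was at 0.0042 and Lpl at 0.38. The chromaffin sum given above was lower in SHR without overlap, with Dbh as its called gene at -1.29. Of its other genes, none called, Slc18a1 was at -0.82, Pnmt at -0.57, Scg2 at -0.53, Chgb at -0.081 and Th at -0.023. In the other direction, Slc18a2 was at 0.91 and Ddc at 0.14. The part of these markers in the Prkar2b difference was not tested. Prkar1a, the RI alpha subunit, read 19898, 20853 and 24015 in SHR and 23069, 25959.7 and 26859 in WKY and stood at -0.23 ± 0.12 (SE; limma adjusted p = 0.444), with SHR replicate 3 inside the WKY range. Prkar1b was at 0.099 (limma adjusted p = 0.855) and Prkar2a at -0.13 (0.787).

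Prkaca, the main catalytic subunit gene, differed in sign between its probe sets. X57986mRNA_r_at read 8359, 9185 and 8148 in SHR and 17570.3, 10987 and 10492 in WKY, every SHR array below WKY and WKY replicate 1 far above the rest. X57986mRNA_s_at read 6884, 6302.5 and 8027 in SHR and 9307, 5640.1 and 3349.8 in WKY, with WKY spread from below to above all SHR arrays. Their differences were -0.56 ± 0.20 (SE; limma adjusted p = 0.264) and 0.32 ± 0.32 (SE; limma adjusted p = 0.716). Without WKY replicate 1 they stood at -0.32 and 0.67, neither past the threshold. An r in such a name marks probes chosen under relaxed rules and an s probes that may bind several transcripts. Prkacb was close to 0 in both of its probe sets, at 0.12 and 0.053 (0.885 and 0.953), each with WKY replicate 2 lowest.

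**Figure D3:**
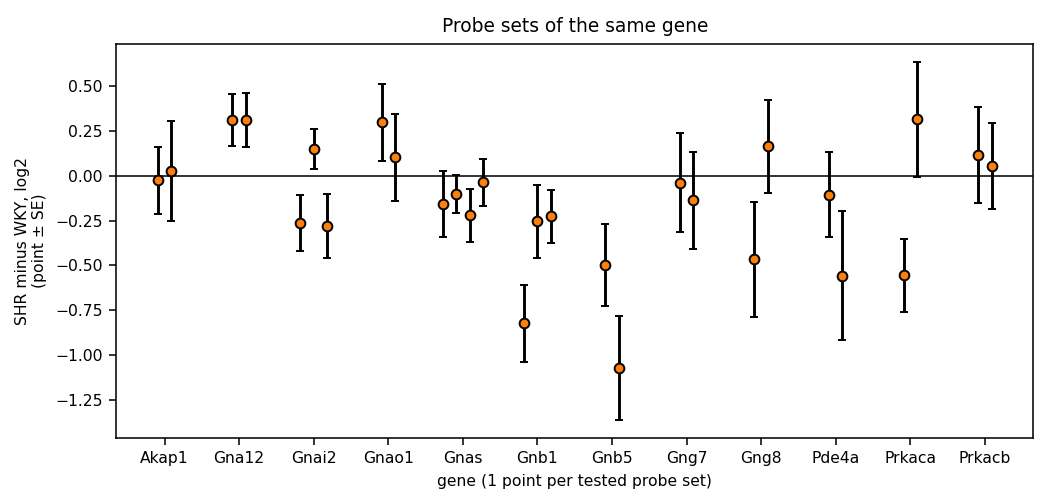
Log2 difference, SHR minus WKY, with its SE for each tested probe set of the 12 member genes with more than 1 of them; 1 point is 1 probe set. The points of Akap1, Gnai2, Gng8 and Prkaca lie on both sides of 0, those of Akap1 close to it, and those of the other 8 genes on 1 side.

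Among the anchors 4 of 11 probe sets were tested and 0 passed. Akap8, a nuclear anchor that binds RII subunits and chromatin, read 1587, 1241 and 853.5 in SHR and 1994, 2047 and 2006 in WKY. The WKY arrays lay close together and every SHR array was below them. Its means were 1227 ± 367 in SHR and 2015.5 ± 27.7 in WKY (mean ± SD, n = 3 each) and its log2 difference was -0.68 ± 0.22 (SE; limma adjusted p = 0.221), with an interval of -1.19 to -0.16. With a block for the run it was -0.31 (0.819), where SHR replicate 1, the highest SHR array, stands alone against WKY. Akap11, a large anchor of RII, read 1535, 1466 and 1429.9 in SHR and 1033, 1621 and 609.6 in WKY, with a tight SHR group inside the WKY range, and was at 0.47 ± 0.30 (SE; limma adjusted p = 0.534). Akap1, which holds PKA at the outer mitochondrial membrane, was at -0.025 and 0.028 in AF068202_at and AF092523_s_at, and its probe sets AF092523_i_at and AF092523_r_at were below the filter. Akap12, also called gravin, was below the filter in both probe sets, of which U41453_at read 214, 530.0 and 484 in SHR and 736, 426 and 594 in WKY, with overlap. Also below it were Akap4, Akap5 and Akap14.

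**Figure D4:**
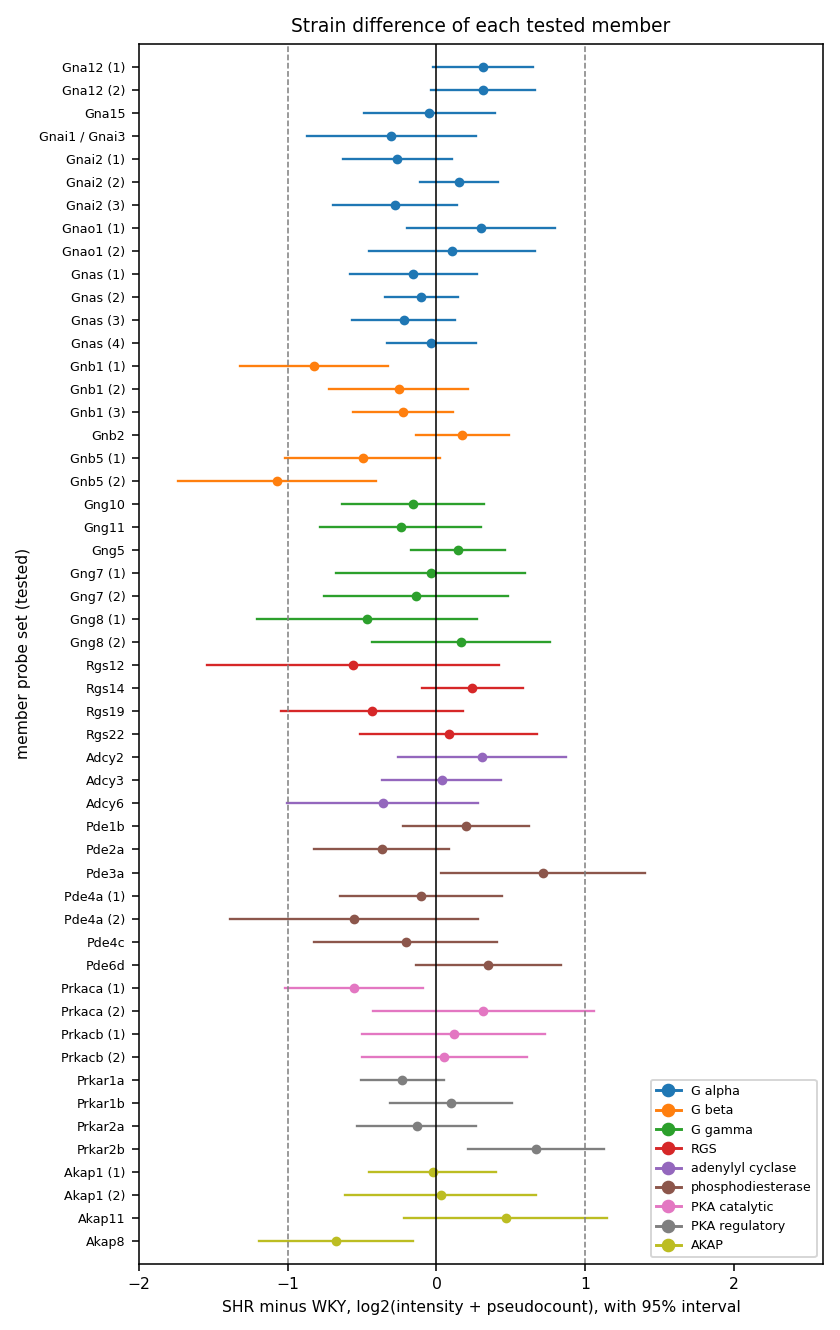
Log2 difference, SHR minus WKY, with its 95% interval for each of the 52 tested members, coloured by family; dashed lines mark 2-fold. The intervals of 6 members do not include 0 (Gnb1, Gnb5, Akap8 and Prkaca below, Prkar2b and Pde3a above), and none of the 52 passed after adjustment over all probe sets.

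Genes around these members were read from 7 lists, with 1 probe set per gene, and 0 passed in any list by limma. Of 16 tested receptors that act through Gs, 3 were at an unadjusted p under 0.05, Fshr at 1.25 ± 0.37 (SE; limma adjusted p = 0.164), the melanocortin receptor gene Mc3r at 0.45 ± 0.17 (SE; limma adjusted p = 0.282) and, in the other direction, the prostacyclin receptor gene Ptgir at -0.71 ± 0.29 (SE; limma adjusted p = 0.323). In Ptgir, named after its values were seen, every SHR array was below every WKY array. Of 18 receptors that act through Gi or Go, 1 was, the glutamate receptor gene Grm4 at 0.55 ± 0.18 (SE; limma adjusted p = 0.200), and Ptger3 was at 0.42. None of 8 receptor kinases, arrestins and other regulators was, with Grk6 at -0.74 and the beta-gamma binding gene Pdcl at 0.35. Median log2 differences of these 3 lists were 0.23, 0.16 and 0.13. For comparison, 13.9% of all tested probe sets were at an unadjusted p under 0.05.

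Among the other effectors of cyclic AMP the widest difference was in Rapgef4, the cyclic AMP-activated exchange factor for Rap also called Epac2. It read 1432, 1029.9 and 1437 in SHR and 3122.5, 1921 and 2376 in WKY. Every SHR array was below every WKY array, and the log2 difference was -0.83 ± 0.22 (SE; limma adjusted p = 0.134). Cnga3, a cyclic nucleotide-gated channel subunit, was at 0.52 ± 0.23 (SE; limma adjusted p = 0.363), and of the 7 genes in that list 1 was at an unadjusted p under 0.05. Of 3 tested genes of the CREB family and its partners none was, with Creb1 itself at 0.17 ± 0.19 (SE; limma adjusted p = 0.733) and Ppp1r1a, a phosphatase inhibitor that PKA activates, at -0.38 ± 0.21 (SE; limma adjusted p = 0.459). Among 17 genes driven by cyclic AMP 1 was, Inha at 0.59 ± 0.13 (SE; limma adjusted p = 0.0732), and Bdnf was at -0.57. Wider differences with larger SEs, named after their values were seen and none called, lay in the same list. They were Nr4a1 at 1.44 ± 0.70, Nr4a3 at 1.27 ± 0.62, Nr4a2 at 1.10 ± 0.67 and, in the other direction, Pck1 at -1.51 ± 0.83 (SE), each with overlap between strains. Of 11 tested genes of phospholipase C and Gq effectors 2 were at an unadjusted p under 0.05, the protein kinase C gene Prkce at 0.74 ± 0.19 (SE; limma adjusted p = 0.110) and the diacylglycerol kinase gene Dgka at -0.47 ± 0.17 (SE; limma adjusted p = 0.262). The medians of these 4 lists lay between -0.055 and 0.0038.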

How the data were processed

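RNA of 6 adrenal samples was read on single-colour Affymetrix RG-U34A arrays, per the labels. The authors deposited 1 linear intensity per probe set and array; neither the expression algorithm nor the scaling is stated in these sources. The deposited settings files (other values: chip lot, fluidics station and module, hybridization time) showed 1 lot, 1 station and 4 modules. The 2 runs were inferred from hybridization times over 60 minutes apart by clock time.

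Leaving out 59 controls, 8740 probe sets were named from the platform annotation (7006 with 1 symbol, 308 with several, 1426 with none). Values were used as log2(intensity + 181.5). The comparison, SHR minus WKY over all 6 arrays, used limma 3.58.1 (lmFit, eBayes with trend; R 4.3.3), two-sided, with Benjamini-Hochberg adjustment over the 5244 tested probe sets and a threshold of 0.05. A gene in a list was represented by its brightest tested probe set. The fit was tested on simulated data (10 tables, 200 changed probe sets each). The precision is limited by the number of arrays.

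Members, lists and tests were chosen with earlier results of these data known. The probe sets named were the 4 of smallest p in each family with further probe sets of those genes, a fixed set of members, and 2 genes per list. Other tested members are also reported (Gnb2, Gna15, Gng7, Pde1b, Pde4c and the shared Gnai1 and Gnai3 probe set). These were left out of the sign counts under the alternatives below. Pde5a, Ptgir, Nr4a1, Nr4a2, Nr4a3 and Pck1 were added after their values were seen. Alternatives covered normalization, pseudocount, filter, variance model, blocks, each array left out and averaged probe sets.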

Additional observations from a re-analysis of the deposited data

How the results depend on the processing

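No member passed limma's test under any of the 18 alternatives, where the lowest adjusted p of a named member was 0.0572 (Gnb5 with the run as a block), and the median of the members moved by less than its spread between arrays (SD 0.0376). Averaging a gene's probe sets, with adjustment over genes in place of probe sets, gave 1 called gene, Gnb5, in place of 0. The share of all genes called in that fit was not counted, so this call has no background beside it. Over all probe sets 102 calls became 60 without the intensity trend, 46 with the fluidics module as a block and 20 with the run as a block. The contrast with the run as a block rests on 1 SHR array against the WKY arrays, and why its calls were fewer was not tested. The calls were 38 to 59 with an array left out. With the replicate number as a block they were 53, but same-numbered arrays did not deviate together (correlations 0.000882, 0.0105 and 0.0712), so the numbers were not taken to pair them, and 0 members were called there too. Of 45 named tested probe sets, 33 kept their sign throughout. The other 12, none called, changed sign at least once. With the run as a block, and equally in the first run alone, these were Akap1 AF068202_at at 0.15, Akap1 AF092523_s_at at -0.36, Gnao1 M17526_g_at at -0.042, Gnas rc_AI237836_g_at at 0.092, Gng10 rc_AA799996_at at 0.17, Pde4a M25348_s_at at 0.18, Prkacb D10770_s_at at -0.092, Prkacb rc_AA891881_at at -0.13, Prkar2a rc_AI059291_at at 0.061, Rgs22 rc_AI639247_at at -0.0048. Akap1 AF068202_at also did when arrays were scaled to a common median, at 0.0086, and Prkaca X57986mRNA_s_at and Rgs22 rc_AI639247_at with the module as a block, at -0.027 and -0.062. With an array left out the ranges were Adcy3 M55075_at from -0.09013 to 0.11, Akap1 AF092523_s_at from -0.20 to 0.22, Gnas rc_AI237836_g_at from -0.11 to 0.07927, Pde4a M25348_s_at from -0.25 to 0.07461, Akap1 AF068202_at from -0.15 to 0.08508, Prkacb D10770_s_at from -0.15 to 0.28, Prkacb rc_AA891881_at from -0.24 to 0.20, Gnao1 M17526_g_at from -0.0541 to 0.32, Prkaca X57986mRNA_s_at from -0.04223 to 0.67, Rgs22 rc_AI639247_at from -0.11 to 0.34. The cause was not tested.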
